A study of Homo sapiens with 4 samples.

Results

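MYOD occupancy was set against histone acetylation in RD cells after SKP2 knockdown, and each peak was placed in a class by whether the other mark overlapped it. RD cells are an established line derived from an FN-RMS, a rhabdomyosarcoma without a PAX-FOXO1 fusion, and this tumor belongs to the skeletal muscle lineage. The study comprised 4 ChIP-seq libraries in 4 groups of 1 library: MYOD and H3K27ac, each in cells with a scrambled shRNA (shSCR) and in cells with an shRNA against SKP2 (shSKP2). All cells had received a lentiviral shRNA and were selected with puromycin, and the knockdown arm described here carried 1 of the study's shRNA sequences against SKP2. These peak lists measure neither SKP2 transcript nor SKP2 protein, and how far SKP2 was depleted was not analysed here. The knockdown arm held 46914 peaks on chromosomes 1 to 22, X and Y, of 78084 in the whole series. Among 8457 MYOD peaks, 4355 overlapped an H3K27ac peak by at least 1 bp (MYOD with H3K27ac, or acetylated MYOD peaks) and 4102 did not (MYOD alone). Among 38457 H3K27ac peaks, 4496 overlapped a MYOD peak and 33961 did not (H3K27ac alone).

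MYOD is a basic helix-loop-helix transcription factor that specifies skeletal muscle and binds the E-box CANNTG as a dimer with an E protein such as TCF3 or TCF12. It recruits histone acetyltransferases, among them p300, which deposit acetyl groups on lysine 27 of histone H3 (H3K27ac), a mark of active promoters and enhancers. SKP2 is the subunit by which an SCF ubiquitin ligase recognizes substrates, which include the CDK inhibitor p27.

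The sequences under the highest-scoring peaks give examples of the classes at base level, and these peaks need not be typical of their class. Each is the hg38 plus strand from 60 bp before to 60 bp after the summit (121 bp in all), with every CANNTG in capitals. They belong to the highest-scoring MYOD peak of its kind that had a protein-coding transcription start site (TSS) within 100 kb, and to the highest-scoring H3K27ac-alone peak. Promoter here means within 2 kb of the TSS of a canonical transcript, and distal means any other position.
Acetylated, distal, nearest TSS USP14, chr18:108059-108179: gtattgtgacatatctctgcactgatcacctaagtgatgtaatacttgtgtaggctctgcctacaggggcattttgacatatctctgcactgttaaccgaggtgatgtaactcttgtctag
Acetylated, promoter of MAMSTR, chr19:48719926-48720046: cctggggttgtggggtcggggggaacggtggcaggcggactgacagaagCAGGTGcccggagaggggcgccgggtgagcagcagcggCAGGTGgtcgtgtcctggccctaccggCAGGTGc
MYOD alone beside H3K27ac, distal, nearest TSS FBRSL1, chr12:132430377-132430497: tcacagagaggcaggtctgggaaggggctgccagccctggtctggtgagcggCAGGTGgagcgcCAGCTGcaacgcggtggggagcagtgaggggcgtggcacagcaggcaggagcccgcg
MYOD alone beside H3K27ac, promoter of MRPL34, chr19:17305452-17305572: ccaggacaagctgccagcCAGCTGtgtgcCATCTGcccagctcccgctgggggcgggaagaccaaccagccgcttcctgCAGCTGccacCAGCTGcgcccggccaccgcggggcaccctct
MYOD alone far from H3K27ac, distal, nearest TSS RDH8, chr19:10027745-10027865: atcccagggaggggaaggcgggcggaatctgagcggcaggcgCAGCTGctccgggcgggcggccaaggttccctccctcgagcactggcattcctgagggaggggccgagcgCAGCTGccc
H3K27ac alone, nearest TSS SKOR1, chr15:67840136-67840256: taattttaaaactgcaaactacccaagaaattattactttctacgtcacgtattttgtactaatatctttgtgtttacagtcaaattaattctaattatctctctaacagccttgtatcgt
The MAMSTR window held 3 E-boxes, all of them CAGGTG. The FBRSL1 window held 2 E-boxes, 1 of them CAGCTG, and the RDH8 window held 2, both CAGCTG. The MRPL34 window held 4, of which 3 were CAGCTG. The USP14 window held no E-box although its peak reached 17.5-fold over local background, and it contained a stretch of 18 bp that occurred more than once in the window. Its local background was 12.2 fragments against a median of 3.01 over the MYOD list, and most acetylated distal peaks did hold an E-box. The SKOR1 window, centered on an H3K27ac summit, held no E-box.

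Acetylation was found at 51.5% of the MYOD peaks of the knockdown arm (95% interval 50.4 to 52.6), and MYOD at 11.7% of its H3K27ac peaks (interval 11.4 to 12.02). The intervals are Wilson intervals for shares, Newcombe intervals for differences of shares and order-statistic intervals for medians, and all of them cover counting error over the peaks of 1 library. Each group was a single library (n = 1), so replicate error is unknown and no test was run. In the control arm 38.9% of 5814 MYOD peaks overlapped H3K27ac (interval 37.6 to 40.1), but its H3K27ac list was also shorter, with 25356 peaks. The number of fragments at each summit was recovered from the fold and the p-value. The median summit held 20 fragments in the MYOD list and 27 in the H3K27ac list, and the lowest recovered local background was 1.94 and 1.61 fragments. No total read numbers were given with the lists, and where no peak was listed the mark may still have been present below the threshold of the peak caller.

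How close the marks lay to each other was examined next, because a MYOD peak alone may still sit next to acetylated nucleosomes. Of the 4102 peaks of MYOD alone, 1319 (32.2%, interval 30.7 to 33.6) had an H3K27ac peak within 1 kb, and these are called neighboring below. In 719 of them the edge-to-edge gap was at most 100 bp, and 9 directly abutted an H3K27ac peak. The median gap of the neighboring peaks was 90 bp (interquartile range 42 to 182). H3K27ac peaks lay within 1 kb on both sides of 346 peaks of MYOD alone. The other 2783 peaks of MYOD alone, called remote, had a median gap of 20115 bp, and 338 of them lay more than 100 kb from any H3K27ac peak. The split at 1 kb was made with these values in view.

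Within the acetylated class, overlap did not always mean coincidence. The MYOD summit itself lay inside the H3K27ac peak at 2560 of 4355 peaks (58.8%), H3K27ac covered at least 50% of the MYOD peak at 69.6%, and it covered the whole of it at 40.8%. The summits of overlapping MYOD and H3K27ac peaks were a median of 235 bp apart (interquartile range 148 to 361). Pairing was mostly one to one, since 197 MYOD peaks (4.52%) touched more than 1 H3K27ac peak and 56 H3K27ac peaks (1.25%) touched more than 1 MYOD peak.

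Around distal acetylated MYOD summits the H3K27ac cover had a dip at its center. H3K27ac peaks covered 50.3% of the 2951 summits themselves, 73.3% of the positions 250 bp to the left and 74.2% of those 250 bp to the right. At the 1404 acetylated promoter peaks, turned to the direction of transcription, no such dip was seen: cover was 76.7% at the summit and 76.5% 100 bp upstream. Neighboring distal peaks, which by definition had no cover at the summit, reached 51.9% at 350 bp on the left and 53.5% at 400 bp on the right. Farther out on the left, cover at neighboring and acetylated distal sites was 46.3 and 55.7% at 500 bp, 14.8 and 15.9% at 1 kb and 4.91 and 2.13% at 2 kb, so the neighboring class was lower near the summit and higher at the greatest of these distances.

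**Figure D1:**
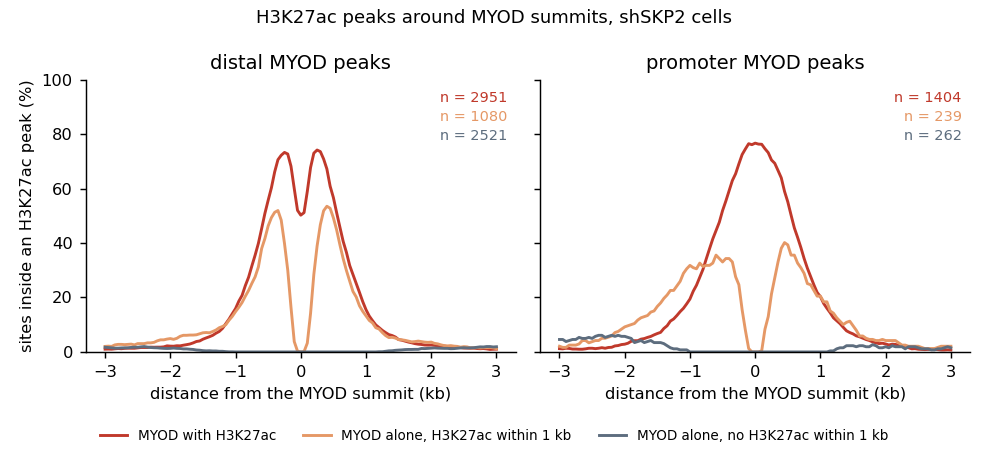
Share of MYOD sites (y axis, percent) that lay inside an H3K27ac peak at each distance from the MYOD summit (x axis, kb), for distal peaks (left panel, genome orientation) and promoter peaks (right panel, direction of transcription to the right), by class. Acetylated distal sites show maxima of 73.3% and 74.2% at 250 bp on either side of a summit value of 50.3%, while acetylated promoter sites peak at the summit with 76.7%. The zero at the summit of both classes without overlap, and the zero within 1 kb for the remote class, follow from how the classes were defined.

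The promoter share differed between the MYOD classes, and for the lists as deposited it did not differ beyond the intervals between the H3K27ac classes. Promoters held 32.2% of the acetylated MYOD peaks (interval 30.9 to 33.6) and 12.2% of MYOD alone (interval 11.2 to 13.3), a difference of 20.025 percentage points (interval 18.3 to 21.7). The share was 18.1% for the neighboring and 9.41% for the remote peaks. Conversely, 73.7% of promoter MYOD peaks were acetylated, against 46.6% of those in gene bodies and 43.2% of those between genes. Acetylation was most frequent within 200 bp of a TSS, at 79.2% of 753 MYOD peaks, and it was 70.1% from there to 2 kb. Beyond 2 kb the share did not fall steadily with distance: it was 41.7% up to 10 kb, 47.2% up to 50 kb, 45.9% up to 100 kb and 43.5% farther out. By transcript part the acetylated share was 81.7% in 5' UTRs (312 peaks), 57.2% in first introns (1316 peaks), 50.7% in other introns and 53.7% in coding exons (352 peaks).

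For the H3K27ac peaks, promoters held 31.5% of H3K27ac peaks with MYOD and 31.2% of H3K27ac alone, a difference of 0.341 percentage points (interval -1.09 to 1.80). By distance the classes did differ: 18.2% of H3K27ac peaks with MYOD lay over 100 kb from a TSS (interval 17.1 to 19.3), against 24.3% of H3K27ac alone (interval 23.8 to 24.8). Within 200 bp of a TSS the shares were 10.7% (interval 9.81 to 11.6) and 8.80% (interval 8.50 to 9.10). The median distance of the distal peaks to a TSS was 43983 bp with MYOD and 60429 bp without. The promoter shares were close only in the lists as deposited. With a -log10 p of at least 10 in both lists the promoter share was 17.3 percentage points lower with MYOD than without (difference -17.3, interval -19.2 to -15.4).

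**Figure D2:**
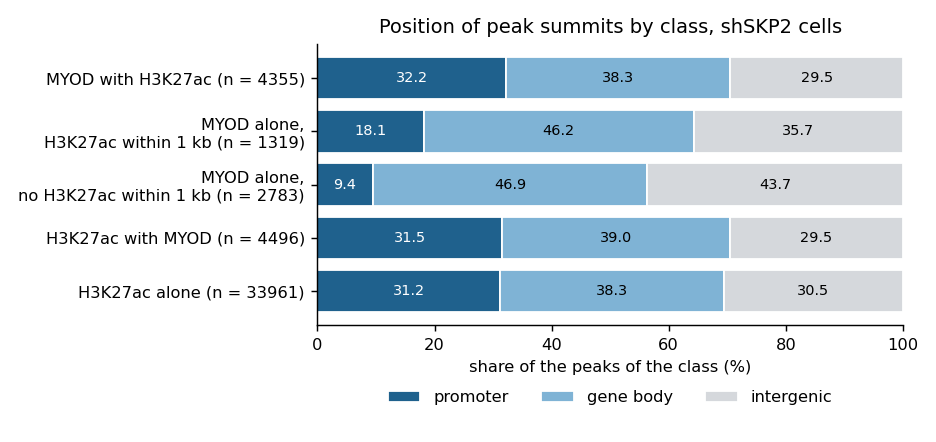
Share of the peaks of each class (x axis, percent) whose summit lay in a promoter, elsewhere in a gene body, or between genes, with the number of peaks beside each class. Promoters hold 32.2% of acetylated MYOD peaks and 9.4% of remote ones, whereas the promoter shares of the H3K27ac classes are 31.5 and 31.2%.

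Stronger MYOD peaks were acetylated more often at distal sites, and less clearly at promoters. The median MYOD enrichment was 5.64-fold over local background for acetylated peaks (interval 5.52 to 5.75) and 5.13-fold for MYOD alone (interval 5.08 to 5.21). Among MYOD alone it was 5.53-fold for the neighboring and 4.97-fold for the remote peaks. At promoters the medians were 4.76-fold in both classes, with intervals of 4.67 to 4.92 and 4.56 to 4.95. At distal sites they were 6.14-fold with H3K27ac and 5.20-fold without. When all MYOD peaks were divided by fold into 10 bins of nearly equal size, the acetylated share of distal peaks was 33.2% in the lowest bin (interval 29.5 to 37.0) and 65.6% in the highest (interval 62.1 to 69.0). It stayed between 33.2 and 39.8% over the lower 6 bins and was higher in each later bin. At promoters the share lay between 67.7 and 79.9% in all 10 bins. MYOD peaks with H3K27ac were also wider, with a median of 322 bp against 251 bp, and a wider peak has more room to touch another by 1 bp.

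**Figure D3:**
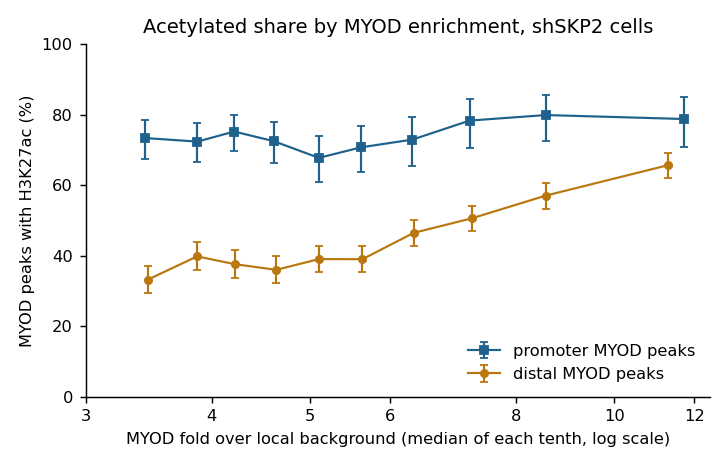
Share of MYOD peaks with H3K27ac (y axis, percent, with Wilson 95% intervals) against the median MYOD fold of each of 10 bins (x axis, log scale), for promoter and distal peaks. Distal peaks go from 33.2% in the lowest bin to 65.6% in the highest, and promoter peaks stay between 67.7 and 79.9%.

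H3K27ac peaks with MYOD were wider and stronger than H3K27ac alone. Their median width was 765 bp against 465 bp, and the median enrichment was 5.25-fold (interval 5.18 to 5.31) against 4.45-fold (interval 4.43 to 4.46). Among distal H3K27ac peaks, MYOD was found at 5.23% of those up to 300 bp wide and at 34.0% of those over 1200 bp. Counted per kb of H3K27ac cover, MYOD overlaps numbered 0.207 per kb in the narrowest and 0.231 per kb in the widest distal peaks. At promoters the density was 0.192 per kb in the narrowest and 0.158 per kb in the widest. As counted, the density varied far less than the share from the narrowest to the widest peaks. It was slightly higher in the widest distal and lower in the widest promoter peaks. An overlap of 1 bp was enough, so MYOD peaks reaching in from outside counted in full. That raises the density more in narrow than in wide peaks, and no correction was made for it. The similar densities therefore do not show that MYOD sites were evenly spread over H3K27ac cover.

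The E-box composition differed between acetylated and remote MYOD sites. Within 100 bp of the summit, any CANNTG was present at 96.1% of acetylated, 97.2% of neighboring and 94.9% of remote distal peaks, against 67.1% of windows of the same length placed 2 kb away that touched no MYOD peak. CAGCTG, the E-box with a GC core, was present at 67.8% of acetylated distal peaks and 67.5% of neighboring ones. It was less frequent at remote distal peaks, with 57.8%, which was 9.97 percentage points below the acetylated ones (interval of the difference 7.41 to 12.5). Only 9.62% of the distal windows 2 kb away and 7.91% of distal H3K27ac-alone windows held it. At promoters the order turned: 48.1% of acetylated peaks and 55.3% of remote ones had CAGCTG, a difference of -7.27 points (interval -13.7 to -0.672). Over all positions the acetylated peaks were 3.85 points above the remote ones (interval 1.51 to 6.18), and the neighboring peaks were 7.30 points above them (interval 4.11 to 10.4). Between MYOD with H3K27ac and all of MYOD alone the difference was 1.5 points (interval -0.582 to 3.58).

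CACCTG, read on both strands and thus including CAGGTG, had the opposite pattern at distal sites. It was present at 40.0% of acetylated, 49.6% of neighboring and 52.2% of remote distal peaks, so that the acetylated peaks were 12.2 points lower than the remote ones (difference -12.2, interval -14.8 to -9.53). The difference was -14.8 points at promoters (interval -21.2 to -8.22). Of the distal windows 2 kb away, 20.6% held CACCTG. Among 35116 RefSeq promoters of the human genome (GRCh38), the 200 bp before the TSS with its first base held CAGCTG in 11.8% and CACCTG in 14.3%. Sorting distal MYOD peaks by their E-boxes showed the same contrast: 51.9% of those with CAGCTG but no CACCTG were acetylated (interval 50.02 to 53.8), and 37.8% of those with CACCTG but no CAGCTG (interval 35.4 to 40.2). The share was 40.2% where both were present and 44.9% where neither was. At promoters the highest acetylated share, 82.6%, was that of peaks with neither E-box, which also had the lowest median MYOD enrichment there, 4.02-fold.

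Because acetylated distal peaks were stronger, the E-boxes were also compared within bands of MYOD enrichment. Below 5-fold, CAGCTG was present at 53.7% of acetylated and 48.4% of remote distal peaks. From 5 to 8-fold the values were 72.5 and 66.3%, and at 8-fold or more 77.3 and 70.4%. CACCTG was lower in the acetylated peaks of each band, with 33.0 against 47.3%, 41.7 against 57.1%, and 45.6 against 56.6%. CACCTG differed beyond the intervals in each band. The intervals of the CAGCTG shares overlapped below 5-fold (50.5 to 56.8 and 45.7 to 51.2) and at 8-fold or more (74.3 to 80.003 and 64.8 to 75.5), and CAGCTG was more frequent in stronger peaks of either class. The CAGCTG nearest to the summit lay a median of 11.5 bp away in acetylated, 10.5 bp in neighboring and 13.5 bp in remote peaks.

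Motifs of other factors were searched in the same windows on both strands. AP-1, the dimer of FOS and JUN proteins that acts downstream of growth factor signaling, recognizes TGANTCA. This motif was present at 14.4% of acetylated and 14.8% of neighboring distal peaks but at 8.85% of remote ones, which is 5.59 points less than the acetylated peaks (interval 3.90 to 7.27). The distal windows 2 kb away held it in 6.14%, and distal H3K27ac-alone windows in 6.06%. Within the 3 bands of MYOD enrichment the acetylated and remote shares were 14.0 and 7.405%, 15.3 and 10.2%, and 13.7 and 10.6%, and in the last of them the intervals overlapped. At promoters AP-1 was present at 4.49% of acetylated and 3.82% of remote peaks, with a difference whose interval included 0 (-2.54 to 2.78), and 5.54% of RefSeq promoter stretches held it. The ETS motif CCGGAAG was more frequent at acetylated than at remote peaks in both positions. At promoters the shares were 10.2 and 2.29% (difference 7.90 points, interval 4.89 to 9.99), with 4.17% at promoter H3K27ac-alone summits. At distal sites they were 2.41 and 1.35% (difference 1.06 points, interval 0.333 to 1.78). The MEIS motif TGACAG can share bases with an E-box and was therefore counted with E-boxes masked. It was present at 18.3% of acetylated, 21.7% of neighboring and 19.4% of remote distal peaks, against 12.015% of distal windows 2 kb away, and the acetylated and remote shares differed by -1.10 points (interval -3.19 to 0.972). At promoters the MEIS motif was less frequent in acetylated than in remote peaks, with 8.26 against 14.1% (difference -5.86 points, interval -10.8 to -1.85), and over all positions the difference was -3.85 points (interval -5.67 to -2.06). The RUNX motif TGTGGT was present at 16.2% of acetylated, 21.0% of neighboring and 17.5% of remote distal peaks, and the TEAD motif GGAATG at 15.0, 19.3 and 14.6%. For both, the neighboring peaks were above the remote ones, by 3.49 points (interval 0.701 to 6.39) and 4.66 points (interval 2.0022 to 7.455), against 14.0 and 11.1% in distal windows 2 kb away. The GC box GGGCGG was present at 12.1% of acetylated and 9.24% of remote distal peaks (difference 2.89 points, interval 1.25 to 4.52) and at 48.7 and 45.04% of those in promoters (difference 3.68 points, interval -2.91 to 10.1). The MEF2 motif was rare, with 0.813% of acetylated and 0.278% of remote distal peaks against 0.644% of distal windows 2 kb away. A motif is a run of letters here, and occupancy by these factors was not measured.

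**Figure D4:**
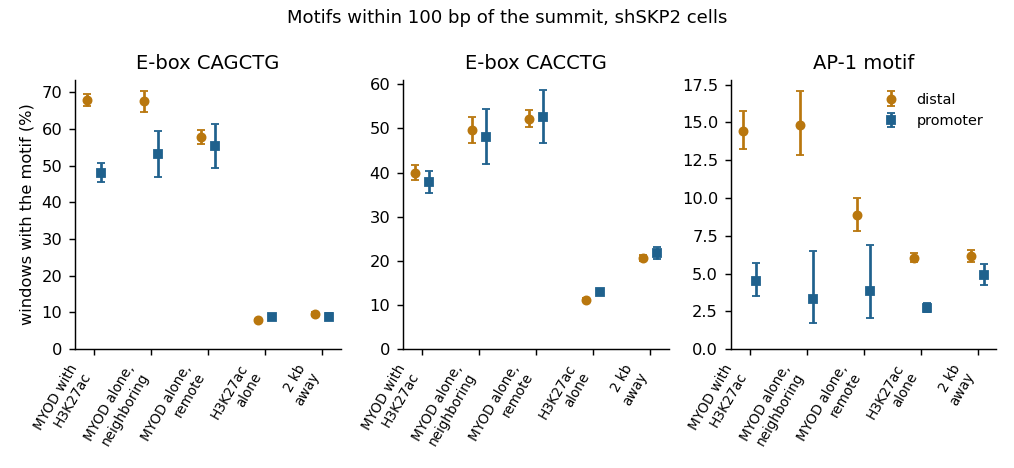
Share of windows within 100 bp of the summit (y axis, percent, with Wilson 95% intervals, scales differ between panels) that hold CAGCTG, the E-box CACCTG or the AP-1 motif, by class and for windows 2 kb away, split into distal and promoter peaks. At distal sites CAGCTG and AP-1 are less frequent in remote than in acetylated or neighboring MYOD peaks, with 57.8 against 67.8 and 67.5%, and 8.85 against 14.4 and 14.8%, while CACCTG is more frequent in remote than in acetylated peaks.

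The highest-scoring peaks of each class were named by the nearest protein-coding TSS. For acetylated MYOD, 3 of the 10 were at genes known from muscle. How often such genes occur over all peaks was not counted, so this number has no background. MAMSTR, which encodes a coactivator of the muscle transcription factor MEF2, had a promoter MYOD peak of 23.9-fold (chr19:48719606-48720169) under an H3K27ac peak of 1824 bp and 4.60-fold. RTN2, a reticulon found in muscle, had a MYOD peak of 22.7-fold in intron 5 (chr19:45492721-45493271), and the H3K27ac peak over it was narrow and strong, with 443 bp and 14.0-fold. CACNA1S, the voltage sensor of excitation-contraction coupling, had one of 16.998-fold in intron 2 (chr1:201095698-201096359). The remaining named sites were near SFRP5, a secreted Wnt antagonist (17.5-fold), SLC44A2, a choline transporter-like protein (20.4-fold), PVRIG, an immune receptor (21.2-fold), AGAP2, a GTPase-activating protein (18.9-fold), and USP14, a deubiquitinase of the proteasome (17.5-fold). Only 2 of the 10 highest lay in promoters. The highest score of all, a -log10 p of 459, belonged to chr16:46387783-46388078, where the MYOD enrichment was 5.71-fold but the local background 199 fragments. H3K27ac was called there too, at 4.84-fold over 88.2 fragments. The list's median background was 3.01 fragments for MYOD, so this site stood out by its background.

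None of the 10 highest peaks of MYOD alone was in a promoter, and 6 of them were neighboring. The strongest enrichment of the whole MYOD list, 25.4-fold, was a remote peak 14.3 kb from the TSS of RDH8, a retinol dehydrogenase of photoreceptors (chr19:10027538-10028052). The nearest H3K27ac peak was 77.9 kb away. A remote peak of 16.3-fold lay in intron 1 of CHRDL2, which encodes a chordin-like BMP antagonist, 21.4 kb from H3K27ac. Another of 15.4-fold lay in intron 6 of KIAA1671, 10.8 kb from it. By contrast, the peak of 16.0-fold near FBRSL1 ended 72 bp from an H3K27ac peak, that in exon 4 of ZNF280B (16.8-fold) 29 bp, and that in intron 9 of PRKG1, assigned to the Wnt antagonist gene DKK1 (13.7-fold), 25 bp. A remote peak at chr4:49149336-49149535 had 16.7-fold over a background of 11.1 fragments.

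Promoters made up most of the highest-scoring H3K27ac peaks in either class. Of the 10 highest H3K27ac-alone peaks 8 were promoters, among them those of SPATA2, an adaptor in TNF signaling (18.2-fold), ANAPC7, of the anaphase-promoting complex (17.04-fold), SEC61B, of the protein translocon (14.6-fold), CALM3, a calmodulin gene (17.6-fold), and UROS, an enzyme of heme synthesis (13.2-fold). The highest, 19.3-fold, lay 14.7 kb from SKOR1, a transcriptional corepressor gene. Of the 10 highest H3K27ac peaks with MYOD 7 were promoters, and the MYOD peaks under them ranged from 3.53 to 12.9-fold, against a median of 5.35-fold over the MYOD list. CHTOP, which acts in mRNA export, had H3K27ac at 19.4-fold and MYOD at 4.48-fold, and EIF3B, of translation initiation factor 3, had 11.4-fold and 3.55-fold. IPO13, an importin, had 18.9-fold and 5.81-fold. At a site 18.5 kb from DGCR6L both were high, with 30.1-fold for H3K27ac and 12.9-fold for MYOD. DGCR6L and PPIAL4F, another gene named by these peaks, have near-identical copies, so read placement there is uncertain.

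Each peak was then assigned to its nearest TSS within 100 kb. Of 20007 protein-coding genes, 2973 (14.9%) were nearest to at least 1 acetylated MYOD peak, 2597 (13.0%) to a peak of MYOD alone and 11508 (57.5%) to one of H3K27ac alone. These shares are the background for the gene lists below. Both MYOD classes met at 685 genes, which is 23.04% of the first set and 26.4% of the second. The acetylated class reached at most 5 peaks per gene, among others at FSCN1, an actin-bundling protein, NFATC1, a calcium-responsive transcription factor, KCNN3, a calcium-activated potassium channel, GAS1, a hedgehog coreceptor, NEK6, ZNF703, B4GALNT3 and CIBAR2. At FSCN1 the strongest of the 5 was 16.6-fold, and the gene had no peak of MYOD alone. MYOD alone reached 4 peaks at several genes. CD82, a tetraspanin, had 4 such peaks up to 13.0-fold and no acetylated one, and the same held for PDLIM3, an actinin-binding protein of the Z-disc, LAMA5, a laminin chain, SSTR5, a somatostatin receptor, and MAPKAPK2, a kinase downstream of p38. H3K27ac alone was most frequent near COL5A2, a fibrillar collagen (20 peaks), ADAM12, a metalloprotease of myoblast fusion (19), RGS1 and RGS17, regulators of G protein signaling (18 each), ZNF217 and BLID (17 each), and BCAR3 and MLIP (16 each). Genes with long surroundings collect more peaks under this assignment, and no correction was made for it.

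Genes near distal MYOD peaks differed in the state of their own promoters by class. Promoter state was read from the same H3K27ac list that defined the classes. For MYOD peaks just outside a promoter, part of the contrast can therefore follow from the definition, and how much was not tested. An H3K27ac peak overlapped the promoter of 51.4% of all protein-coding genes (interval 50.7 to 52.1). The share was 58.3% for genes nearest to a distal acetylated MYOD peak (interval 56.0 to 60.6) and 61.3% for those nearest to a distal neighboring one (interval 57.6 to 64.8). For genes nearest to a distal remote peak it was 51.3% (interval 48.8 to 53.7), close to all genes. Distal H3K27ac-alone peaks gave 60.1% (interval 58.9 to 61.3), which overlaps the interval of the acetylated MYOD peaks.

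Myogenic regulators and fusion genes were the lists with the highest share of members near acetylated MYOD. They were above all genes for the other classes too. Near MYOD alone were 54.2 and 34.8% of members, against 13.0% of all genes. Near H3K27ac alone were 91.7 and 82.6%, against 57.5%. Among 24 myogenic regulators, 16 were nearest to an acetylated MYOD peak, 13 to MYOD alone and 22 to H3K27ac alone, and the median number of acetylated MYOD peaks was 1 against 0 over all genes. MEF2D, a MEF2 factor expressed in muscle, had 3 acetylated peaks, 1 of them in the promoter (3.67-fold) and the strongest 11556 bp into the gene (7.25-fold). PAX7, the factor of muscle stem cells, had 2, of 11.4 and 8.74-fold at 62914 and 81502 bp from the TSS in the direction of transcription, while its promoter had no H3K27ac peak. MYOD1 itself had 5 MYOD peaks upstream, of which the acetylated ones lay at 31515 bp (9.30-fold) and 19829 bp (4.64-fold). EYA1, a transcriptional coactivator, had a remote peak of 5.01-fold 5298 bp from the TSS. The fusion and adhesion list had 14 of 23 members near acetylated MYOD, also with a median of 1, 8 near MYOD alone and 19 near H3K27ac alone. CDON, a receptor that promotes myogenesis, NCAM1, a cell adhesion molecule, and ADAM12 had 3 acetylated peaks each, the strongest being 10.8-fold at CDON. DMD, which encodes dystrophin, had a remote peak in intron 1, and NEO1 was assigned one 84576 bp upstream.

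Partners and antagonists of MYOD were found in both classes. Of 21 E protein and bHLH antagonist genes, 10 were near acetylated MYOD and 9 near MYOD alone. HEY1, a Notch target, had 3 acetylated peaks up to 12.8-fold upstream, and BHLHE40 and HES6 each had 2 in the promoter. HES1, the other Notch target named, had 3 MYOD peaks, all remote, of 5.03 to 5.97-fold, the nearest 37906 bp upstream. ID3, which sequesters E proteins, had a remote peak of 10.8-fold and a neighboring one of 5.34-fold.

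Genes of the contractile apparatus and its excitation followed. Of 53 sarcomere genes, 18 were near acetylated MYOD, 12 near MYOD alone and 35 near H3K27ac alone. TNNT1, slow troponin T, had 2 acetylated peaks of 8.51 and 6.93-fold on either side of its TSS, and ACTA1, skeletal actin, had one of 7.503-fold 709 bp upstream and one of 7.16-fold 22793 bp downstream of the TSS. PDLIM3 had 4 peaks of MYOD alone, 3 of them neighboring, in surroundings with 15 H3K27ac-alone peaks. Excitation-contraction coupling had 10 of 21 genes near acetylated MYOD and 9 near MYOD alone. STAC3, a partner of the calcium channel, had a promoter peak of 12.8-fold with H3K27ac. SRL, sarcalumenin, had 3 acetylated peaks and 2 remote ones, and JPH2, junctophilin, had 2 acetylated ones and a neighboring one. BIN1, which shapes T-tubules, had 3 peaks of MYOD alone. The 2 assigned to CACNG1, a calcium channel subunit, lay inside CACNG4 and HELZ, 32591 and 87947 bp from the CACNG1 TSS.

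Genes of the neuromuscular junction often had MYOD in the promoter. Of 15 genes, 7 were near acetylated MYOD and 3 near MYOD alone, and 8 had a MYOD peak in the promoter, compared with 2167 of all 20007 protein-coding genes. CHRNB1 and CHRND, subunits of the acetylcholine receptor, had acetylated promoter peaks of 18.1 and 13.9-fold, and ERBB3, a neuregulin receptor, had one of 11.9-fold. RAPSN, which clusters the receptor, had a remote peak of 10.8-fold 19 bp from its TSS, and DOK7, an activator of MuSK, one of 6.47-fold 1656 bp upstream. Neither of these promoters had an H3K27ac peak. In muscle energy metabolism 6 of 16 genes were near acetylated MYOD and 1 near MYOD alone. Acetylated peaks were 8.90-fold in PHKG1, a phosphorylase kinase subunit, and 5.90-fold at the promoter of AMPD1, muscle AMP deaminase. The acetylated peak assigned to TFAM, of 5.23-fold, lay 12573 bp upstream.

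Proliferation genes had acetylated promoters, and their share near MYOD was not far from that of all genes. Among 35 genes of the cell cycle and DNA replication, 32 had an H3K27ac peak in the promoter, while 3 were near acetylated MYOD (8.57%, against 14.9% of all genes) and 6 near MYOD alone (17.1%, against 13.0%). The 3 were E2F1 (4.86-fold), E2F2 (4.31-fold) and CDK4 (4.11-fold). CDK6 and CCNE1 were near MYOD alone, up to 3.87 and 4.77-fold. Of 34 genes of cytosolic ribosomal proteins all 34 had promoter H3K27ac, and 3 were near acetylated MYOD and 5 near MYOD alone. RPS3 and RPLP0 had their acetylated peaks at 18666 and 27738 bp from the TSS, and only RPL18 had one in its promoter, at 3.48-fold. RPLP1 and RPL30 were assigned peaks of MYOD alone, of which the nearest lay 15859 and 55152 bp from the TSS. Of 10 CDK inhibitors and pocket proteins 3 were near acetylated MYOD and 2 near MYOD alone. Besides CDKN1A these were RBL1, which encodes the pocket protein p107 (9.01-fold in the promoter), and CDKN2C, which encodes p18 (3.81-fold).

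AP-1 and ERK feedback genes were near MYOD of both classes and had much acetylation of their own. Of 25 genes, 10 were near acetylated MYOD, 11 near MYOD alone and 24 near H3K27ac alone, with a median of 6 H3K27ac-alone peaks per gene against 1 over all genes. FOSL2, an AP-1 subunit, ETV4, an ETS factor induced by ERK, and DUSP4, a MAP kinase phosphatase, had 2 acetylated MYOD peaks each, of 4.13 to 8.91-fold. DUSP1 had 2 remote peaks, the stronger of 7.47-fold and 30136 bp from the TSS. SPRY1, an inhibitor of receptor signaling, had 1 of 7.47-fold, 10384 bp from the TSS.

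Marker genes of other tissues were used to check the cell type. An H3K27ac peak was present in the promoter of 2 of 18 neuron and glia markers, 1 of 16 blood and endothelium markers, 2 of 16 epithelium and liver markers and 2 of 18 markers of cardiac and smooth muscle. Over all protein-coding genes it was 10281 of 20007, and among myogenic regulators 19 of 24. The other muscle lists were lower: 23 of 53 sarcomere genes, 9 of 21 for excitation-contraction coupling and 8 of 16 for muscle energy metabolism. It was 12 of 23 for fusion and adhesion and 9 of 15 for the neuromuscular junction. Acetylated MYOD was nearest to 2, 3, 0 and 0 of the markers of other tissues in the order above, and MYOD alone to 4, 1, 1 and 0. For neurons and glia and for blood and endothelium these numbers are 11.1 and 18.8% with H3K27ac, near the 14.9% of all genes. For MYOD alone they are 22.2 and 6.25%, against 13.0% of all genes. A MYOD peak lay in the promoter of 3 of the 18 neuron and glia markers, against 2167 of all 20007 genes. None of the markers in the remaining lists of other tissues had one. The defining markers of other cell types were thus mostly without promoter acetylation, and not all of them were without MYOD. The neuronal list included MBP, with 3 acetylated peaks up to 9.43-fold at distal positions and no promoter H3K27ac, and SLC17A7. GRIN1 and GFAP were near remote peaks. MBP and GRIN1 each had a remote peak in the promoter, 1534 and 1830 bp upstream of the TSS. CD3E, TIE1 and VWF made up the 3 blood and endothelium markers near acetylated MYOD, and CLDN4 was near a remote peak.

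The loci followed in the study were placed in the classes last. Within the gene bodies and 10 kb on each side of 9 loci there were 9 MYOD peaks at 5 loci, 4 of them acetylated, 3 neighboring and 2 remote. SKP2, CDKN1B, CDKN1C and MYH2 held no MYOD peak, and MYH2 held no H3K27ac peak either. In SKP2, H3K27ac peaks of 2.69 to 3.41-fold were called at 3926, 4408 and 5144 bp from the TSS. From earlier ChIP-seq data the study reported MYOD at an acetylated intronic region of SKP2 in RD cells. A missing peak in this 1 knockdown library does not show that MYOD was absent there. The summit windows of the MYOD peaks are shown in the same format as above, except for the CDKN1A promoter, whose window reaches into transcribed sequence and held 2 CAGCTG.
MYL1, acetylated, beyond the 3' end, chr2:210288454-210288574: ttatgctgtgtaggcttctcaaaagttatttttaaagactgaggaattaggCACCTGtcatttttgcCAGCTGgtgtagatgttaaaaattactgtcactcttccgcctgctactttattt
MYL1, acetylated, intron 1, chr2:210309940-210310060: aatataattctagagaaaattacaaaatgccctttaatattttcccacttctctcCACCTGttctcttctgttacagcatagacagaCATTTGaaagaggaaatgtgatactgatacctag
MYOG, neighboring, promoter, chr1:203086236-203086356: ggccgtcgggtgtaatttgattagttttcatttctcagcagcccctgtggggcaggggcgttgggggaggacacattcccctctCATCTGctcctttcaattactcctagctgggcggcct
MYOG, acetylated, inside ADORA1, chr1:203091882-203092002: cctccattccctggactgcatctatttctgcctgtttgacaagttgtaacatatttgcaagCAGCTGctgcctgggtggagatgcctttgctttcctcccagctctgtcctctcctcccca
MYBPH, neighboring, intron 3, chr1:203173659-203173779: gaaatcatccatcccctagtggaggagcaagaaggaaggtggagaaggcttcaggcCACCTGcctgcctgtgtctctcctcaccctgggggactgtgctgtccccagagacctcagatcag
MYBPH, neighboring, intron 3, weaker peak, chr1:203172348-203172468: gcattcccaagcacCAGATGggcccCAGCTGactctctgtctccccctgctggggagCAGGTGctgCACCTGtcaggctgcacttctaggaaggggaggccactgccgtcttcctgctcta
MYOD1, remote, upstream, chr11:17714423-17714543: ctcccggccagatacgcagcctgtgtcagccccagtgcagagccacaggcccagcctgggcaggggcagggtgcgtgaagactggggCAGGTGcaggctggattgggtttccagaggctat
CDKN1A, remote, upstream, chr6:36669234-36669354: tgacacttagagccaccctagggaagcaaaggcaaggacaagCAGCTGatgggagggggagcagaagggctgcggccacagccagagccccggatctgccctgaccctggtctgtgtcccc
At CDKN1A, the gene of p21, the promoter MYOD peak (7.53-fold, summit 17 bp from the TSS) was acetylated and the upstream peak (2.95-fold) was remote, 1272 bp from H3K27ac. The summit of the promoter peak lay just outside the H3K27ac peak that overlapped it. At MYL1, a fast myosin light chain gene, neither MYOD summit coincided with an H3K27ac summit: the H3K27ac summits lay at 26993 and 5778 bp from the TSS and the MYOD summits at 26660 and 5174 bp. Both MYOD summits lay outside the H3K27ac peaks that overlapped them. The summit at 26660 bp fell between its overlapping H3K27ac peak and another H3K27ac peak. At MYOG, the myogenin gene, the promoter peak (5.77-fold, chr1:203085952-203086381) fell into a gap of the acetylation. H3K27ac peaks of 281 and 990 bp flanked it, and the nearer was 16 bp away. The window of this peak held 1 CANNTG and no CAGCTG. At MYBPH, a myosin-binding protein gene, the strong peak in intron 3 (12.03-fold) directly abutted an H3K27ac peak of 677 bp, and a further H3K27ac peak of 299 bp began on its other side. The MYOG promoter peak and the stronger MYBPH peak, counted as MYOD alone by overlap, thus had an H3K27ac peak on each side. The weaker MYBPH peak (3.26-fold) had one on 1 side, 255 bp away. The peak upstream of MYOD1 (7.94-fold) was 5004 bp from the nearest H3K27ac peak.

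**Figure D5:**
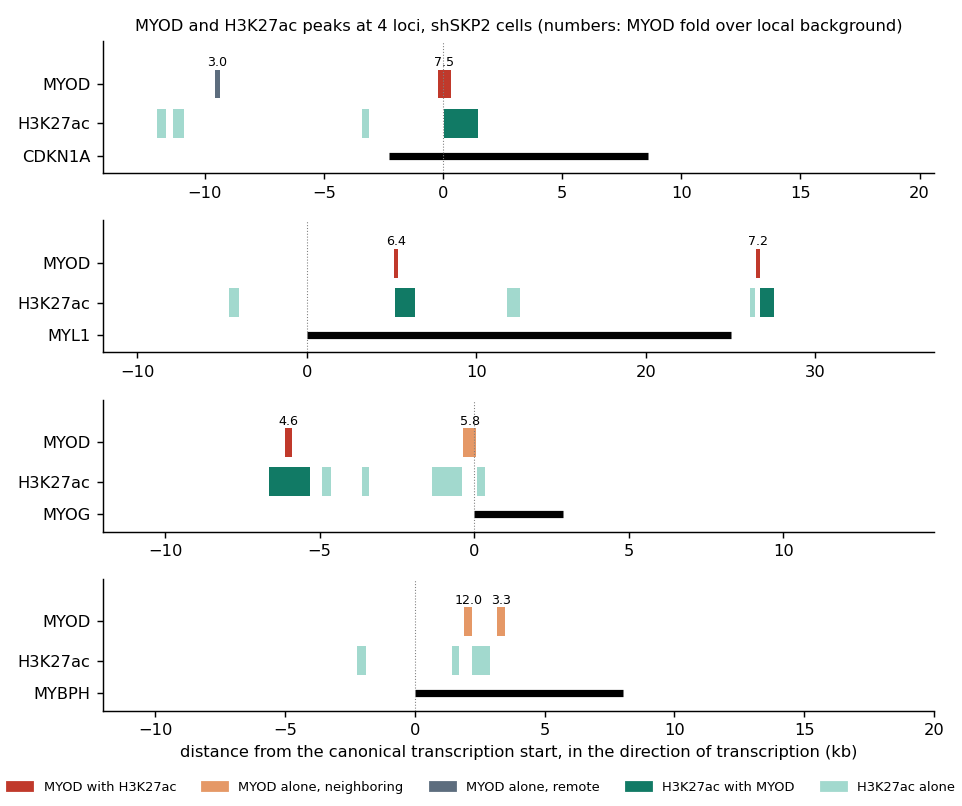
Peaks of MYOD and H3K27ac at CDKN1A, MYL1, MYOG and MYBPH (tracks from top to bottom in each panel, with the gene body as a black bar) by distance from the canonical TSS in the direction of transcription (x axis, kb), colored by class and with the MYOD fold over local background above each MYOD peak. The peak at the MYOG promoter and the stronger peak in MYBPH sit in gaps between H3K27ac peaks. The peaks at the CDKN1A start and at MYL1 overlap H3K27ac peaks, but their summits lie outside those peaks.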

How the data were processed

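The 2 shSKP2 peak lists of the deposited series were the basis, and the shSCR lists entered 1 comparison of shares. Per the study's methods, MNase-fragmented chromatin with Drosophila chromatin as spike-in was immunoprecipitated, reads were aligned to GRCh38 with BWA (version 0.7.17 per the submitters' processing notes), peaks were called per library with MACS3 against input, and exclusion-list regions were removed. Whether spike-in scaling entered the calls is not stated. For each peak the authors deposited a score (10 times the -log10 p, truncated), the fold over local background, and -log10 p and -log10 q values. The smallest -log10 p was 4.00, below the 5 that corresponds to the threshold stated.

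Only the 22 autosomes, X and Y entered, so that 1 H3K27ac peak on another contig was omitted. Overlaps needed 1 bp. Positions used summits and GENCODE release 44 (1 entry per symbol), E-boxes the hg38 sequence within 100 bp of the summit, and promoter stretches RefSeq. Summit fragments were recovered from fold and p within 0.001 in the -log10 p for 100% of peaks. Python 3.11.15, numpy 2.4.6, pandas 2.3.3, scipy 1.17.1 and pysam 0.24.0 were used, and the scripts were tested on simulated peaks. The genes named were, per class, those of the 10 highest -log10 p, the 8 with most peaks, per list the 3 with most acetylated MYOD peaks and the 2 with most peaks of MYOD alone only, and 9 loci, except that 1 gene is not reported here. All 345 entries of the 15 lists matched. Members, lists and rules were chosen with earlier results of these data known. Alternatives were stricter p-values, overlap, promoter and window definitions, and gene domains.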

Additional observations from a re-analysis of the deposited data

Results flagged for a closer look

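The H3K27ac list of the knockdown arm held 1 peak outside the chromosomes, on a contig named SV40 in the files, at 21.7-fold over local background, and the highest control value on that contig was 5.82-fold. The position was outside all comparisons above, and what moved with it was not tested.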

How the results depend on the processing

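Of 34 values recomputed for 10 results, 17 stayed within the interval of the main value (or, for numbers of genes, within 1.5 times of it), 14 moved and 3 changed sign. With a -log10 p of at least 10 in both lists, 45.1% of MYOD peaks had H3K27ac, 10.3% of H3K27ac peaks had MYOD, the promoter share differed by 13.3 points between the MYOD classes and by -17.3 points between the H3K27ac classes, the difference in median H3K27ac width was 206 bp and 1543 genes were nearest to an acetylated MYOD peak. When H3K27ac within 1 kb counted as overlap, the shares were 67.1 and 19.95%, the promoter difference between the H3K27ac classes -3.56 points, that in CAGCTG 4.65 points and that in H3K27ac width 121 bp. When H3K27ac had to cover at least 50% of the MYOD peak the shares were 35.9 and 7.61%, and 30.3% of MYOD summits lay inside an H3K27ac peak. Among distal peaks the difference in median MYOD fold was 0.943. In comparisons added after seeing the data, the CAGCTG difference between MYOD with H3K27ac and MYOD alone was 7.07 points at distal sites and -6.21 at promoters. The cause of these shifts was not tested. No paired analysis was possible because each group had 1 library and no result came from a test. Leaving out a replicate was likewise not possible.

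With the stated p-value, a -log10 p of at least 5, the acetylated share was 51.7%. Peak lists carry no reads between peaks, so depth limits every statement on a missing peak.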

Other observations

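The acetylated share of MYOD peaks was similar over most chromosomes. It was 56.9% on chromosome 19 (441 peaks, Wilson 95% interval 52.3 to 61.5) and between 45.8 and 53.7% on chromosomes 1 to 12. It was lower on chromosome 13, with 30.4% of 56 peaks (interval 19.9 to 43.3), and on chromosome 15, with 39.6% of 207 peaks (interval 33.2 to 46.4). Copy number of these chromosomes in RD cells was not measured here.

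Base composition differed little between the distal MYOD classes. The median GC content of the summit windows was 53.2% for acetylated, 50.7% for neighboring and 53.2% for remote distal peaks, against 46.3% for distal windows 2 kb away and 42.3% for distal H3K27ac-alone windows. At promoters it was 66.7, 67.7 and 65.7% in the 3 MYOD classes.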
